A study of Mus musculus with 22 samples.

Results

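Expression of 29 genes of cholesterol and fatty acid synthesis was followed through reprogramming of mouse fibroblasts. The genes were taken by symbol from a list of enzymes and regulators of the pathway, and all 29 were found among the 24130 genes of the deposited tables. They comprise 4 regulators of the sterol-sensing system, 7 genes of the mevalonate arm, 9 of the sterol arm, 1 sterol carrier, 4 genes of fatty acid synthesis and 4 desaturases.

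RNA was sequenced from OG2 transgenic mouse embryonic fibroblasts (MEFs) at passage 2, of a mixed strain (1/2 129SVJ with 3/8 C57B6 and 1/8 of CBA), which were transfected for 2 days and then sampled on the days given. OSK is Oct4, Sox2 and Klf4 (days 0, 1, 3, 5 and 7), and OvSvK is the same set with Oct4 and Sox2 each joined to vp16, a viral activation domain (days 0, 1, 2, 3 and 4). GFP is the control arm (days 1, 3, 5 and 7). OSK cultures whose medium lacked bFGF, vitamin C, or the GSK3 inhibitors CHIR-99021 and LiCl were sampled on days 3 and 7. The reference cells were OG2 embryonic stem cells (mESC) at passage 5 and untreated MEF at passage 2, for which the label gives 1/11 CBA. Both reference samples are marked as re-analysis in their titles and were processed otherwise than the courses. Neither the vectors nor the share of cells that carried the factors is stated in the labels. The cultures were mixed, so that fewer cells of a type and less RNA per cell cannot be told apart. Each arm and day was 1 library, so an error given below describes how a difference varied from day to day, or how values departed from a straight line, and not the spread between replicates.

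Cholesterol is made from acetyl-CoA through mevalonate, farnesyl diphosphate, squalene and lanosterol. Fatty acids are made from the same precursor by acetyl-CoA carboxylase and fatty acid synthase, and are then elongated and desaturated. Both routes are driven by the SREBP transcription factors, which the escort protein Scap carries out of the endoplasmic reticulum when sterols are low and which Insig proteins hold back when sterols are plentiful. SREBPs bind sterol regulatory elements, commonly next to CCAAT boxes bound by NF-Y and GC boxes bound by Sp1.

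The stretches before the transcription start were read for 22 of the 29 genes from RefSeq (GRCm38.p6), which lists 28 promoters for them. The stretches of 6 genes are printed as examples, without any part covered by an annotated exon. Of these, Hmgcs1 was called in no comparison below by the main test, and called genes such as Idi1, Scap and Fads2 are not printed. Capitals mark CCAAT boxes (CCAAT, or ATTGG on the other strand) and the core of the sterol regulatory element (CACNCCAC on either strand).
Hmgcs1 (chr13:119690101-119690350, plus strand): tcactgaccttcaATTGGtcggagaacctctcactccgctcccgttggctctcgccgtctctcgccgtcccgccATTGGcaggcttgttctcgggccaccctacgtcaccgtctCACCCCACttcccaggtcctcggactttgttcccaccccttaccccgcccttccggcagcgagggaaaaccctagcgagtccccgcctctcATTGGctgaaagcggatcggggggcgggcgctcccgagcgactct
Mvk (chr5:114444061-114444268, plus strand): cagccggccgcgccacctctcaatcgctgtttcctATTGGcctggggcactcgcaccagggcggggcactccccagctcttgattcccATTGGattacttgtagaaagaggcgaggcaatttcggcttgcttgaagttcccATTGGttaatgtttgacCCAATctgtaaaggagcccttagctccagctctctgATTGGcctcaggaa
Mvd (chr8:122443423-122443672, minus strand): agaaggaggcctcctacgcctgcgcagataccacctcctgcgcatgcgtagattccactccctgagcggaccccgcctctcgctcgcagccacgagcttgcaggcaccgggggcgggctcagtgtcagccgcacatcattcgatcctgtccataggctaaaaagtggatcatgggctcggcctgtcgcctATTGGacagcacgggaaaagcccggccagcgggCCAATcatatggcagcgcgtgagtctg
Nsdhl (chrX:72918412-72918520, plus strand): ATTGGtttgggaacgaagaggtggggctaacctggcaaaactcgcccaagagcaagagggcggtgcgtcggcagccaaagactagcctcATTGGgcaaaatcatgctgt
Ebp (chrX:8193513-8193762, minus strand): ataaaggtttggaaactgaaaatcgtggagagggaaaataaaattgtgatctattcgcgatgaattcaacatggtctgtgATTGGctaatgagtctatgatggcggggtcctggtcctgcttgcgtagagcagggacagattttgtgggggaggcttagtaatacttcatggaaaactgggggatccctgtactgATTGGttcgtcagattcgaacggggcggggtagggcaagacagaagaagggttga
Fasn (chr11:120824548-120824797, minus strand): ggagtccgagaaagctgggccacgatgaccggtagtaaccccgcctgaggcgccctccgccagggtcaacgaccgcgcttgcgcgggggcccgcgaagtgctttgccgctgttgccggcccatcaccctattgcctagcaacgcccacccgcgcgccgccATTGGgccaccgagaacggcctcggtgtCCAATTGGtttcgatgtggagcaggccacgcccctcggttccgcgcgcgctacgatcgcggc
The CCAAT box was in 17 of the 28 promoters (60.7%) within the 250 bases before the start, against 33.9% of all 32851 promoters of the table. The GC box GGGCGG was in 20 of the 28 (71.4%), against 32.7%. The core CACNCCAC was in 3 (10.7%), those of Acat2, Hmgcs1 and Insig1, against 5.29%. The E-box form TCACNTGA, searched on both strands as TCACNTGA and TCANGTGA, was in 0 of the 28, against 3.46%. Mvk carried 5 CCAAT boxes, and the 4 on the minus strand began 173, 120, 67 and 14 bases before the start, 53 bases apart each. In Fasn a box on each strand overlapped in the run CCAATTGG. Mvd, which was lower in OSK than in GFP, and Ebp, the gene that was higher in OSK than in GFP, both carried 2 CCAAT boxes. These are matches of letters and not shown binding sites.

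All 29 genes were expressed in every library, with at least 101 counts for each. CPM are normalised counts, divided by the library total times its TMM factor, and levels of different genes are compared only in TPM, a transcript share that allows for length. Scd2, a stearoyl-CoA desaturase, was the most abundant, with a mean of 1464 TPM over the 20 libraries. Scd1 followed at 503 TPM and Fdps, farnesyl diphosphate synthase, at 446 TPM. Tm7sf2, a sterol reductase, was the least abundant at 45.5 TPM. The 29 genes together held between 0.313% of all TPM (OSK day 0) and 0.806% (GFP day 3), and the Scd1 and Scd2 transcripts made up 16.5% to 48.8% of that sum.

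The genes differed in how far they varied. Elovl6, which elongates palmitate, ranged 17.3-fold, from 13.2 CPM on day 0 of OSK to 228 CPM on day 1 of OvSvK. Idi1, isopentenyl diphosphate isomerase, ranged 15.1-fold between the same 2 libraries. The other 27 genes ranged between 2.87-fold (Sqle) and 7.45-fold (Fads2).

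**Figure D1:**
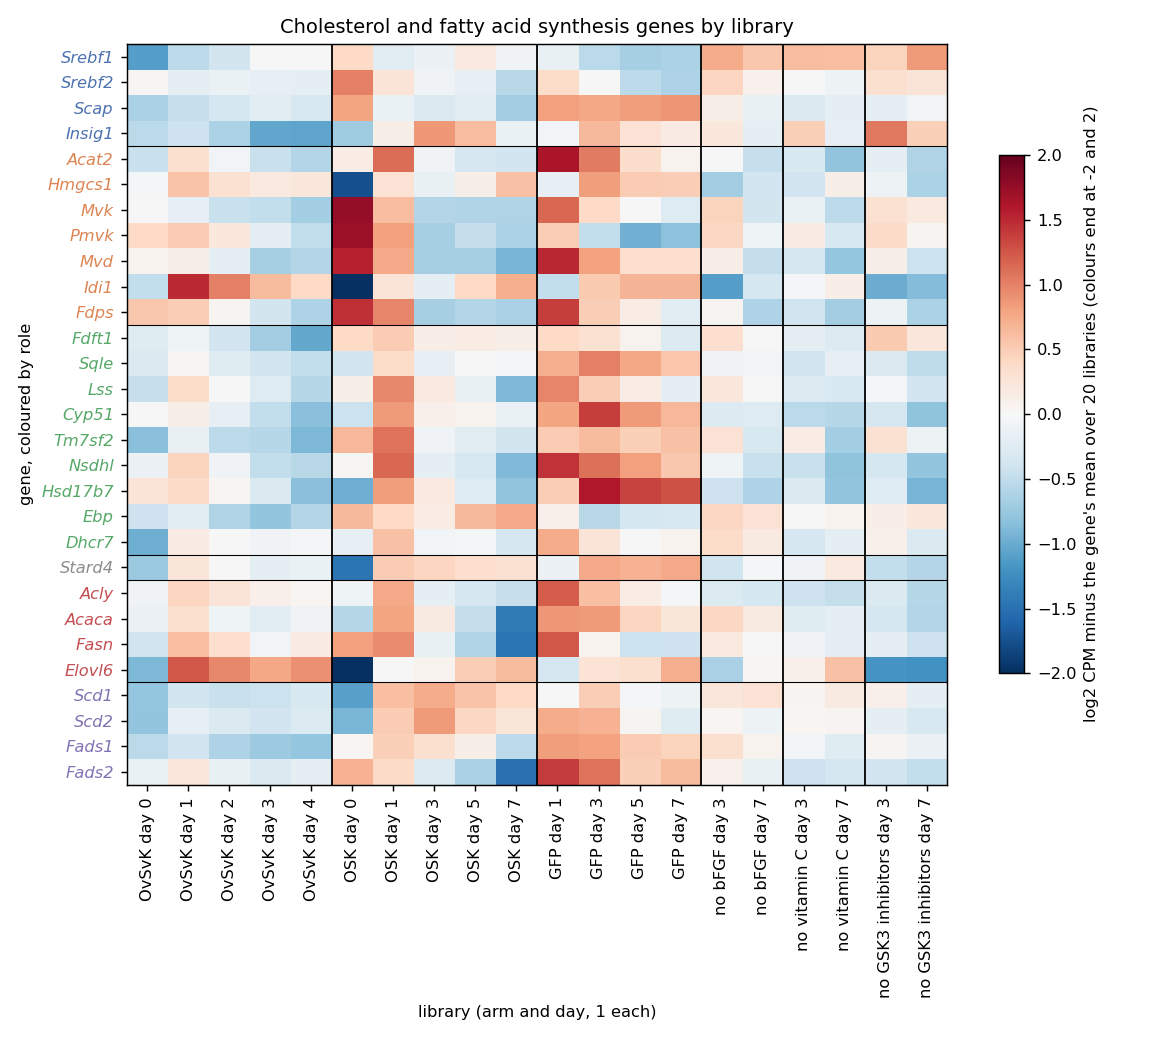
Log2 CPM of each gene minus its mean over the 20 libraries, genes in rows by role and libraries in columns by arm and day (1 library each); red is above and blue below the gene's mean. GFP days 1 and 3 and OSK day 1 are above the mean for most sterol genes, and OSK day 0 is high for Mvk, Pmvk, Mvd and Fdps and low for Hmgcs1, Idi1, Stard4 and Elovl6.

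Library totals lay between 7872278 and 20720724 expected counts. The libraries fell into sets by the share of the pseudogene Rpsa-ps10 in the counts of it and its parent Rpsa. The share was 3.32% to 7.78% in GFP and OSK days 1 to 7 (8 libraries) and 0.124% to 0.476% in the other 12. OSK against GFP lies within 1 set, whereas OvSvK or an omission against OSK on days 1 to 7 crosses the sets, so arm and library set cannot be told apart in those comparisons. OSK day 0 belongs to the set of 12, so the course of OSK from day 0 also crosses the sets at its first point. OSK day 0 stood apart: its genes of lowest and highest GC content (the outer 20% on each side) deviated by -1.36 and 0.98 (log2) from their means, and GFP day 1 came next at -0.91 and 0.20. The low-GC deviation also rose over days 1 to 7, from -0.38 to 0.51 in OSK and from -0.91 to 0.24 in GFP. The 29 genes span a GC content of 40.6% (Idi1) to 59.8% (Srebf1), so calls that change after removal of that trend are given with their values.

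The first comparison asks what the factors did beyond transfection. Over days 1, 3, 5 and 7, 8 of the 29 genes were lower in OSK than in GFP and 1 was higher, by edgeR's quasi-likelihood test with Benjamini-Hochberg adjustment (threshold 0.05). Of all 12680 genes tested, 14% were called lower and 16.8% higher. The median log2 difference was -0.42 over the 29 genes and 0.05 over all genes. The 8 lower genes were Scap, 4 of the mevalonate arm (Acat2, Mvk, Mvd and Fdps), 2 of the sterol arm (Sqle and Nsdhl) and the desaturase Fads2. The higher one was Ebp, the sterol isomerase. By sign alone, 14 genes were lower in OSK on all 4 days and 2, Ebp and Scd1, were higher on all 4. The share of all genes with the same sign on all 4 days was not counted, so these sign counts are description only.

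Among the regulators, Scap lay at 118, 106, 111 and 79.8 CPM on days 1, 3, 5 and 7 of OSK and at 229, 221, 231 and 238 CPM in GFP. The arms did not overlap, and GFP was level. The fitted log2 difference was -1.15 (SE 0.17, adjusted p = 0.00707). The overlapping opposite-strand gene 5830462I19Rik covers 13.2% of the Scap exons, at a median of 0.702 CPM. The transcription factor genes did not pass: Srebf1 differed by 0.46 (SE 0.20, adjusted p = 0.128), with 149, 161, 200 and 166 CPM in OSK against 157, 120, 110 and 112 CPM in GFP. Insig1, the sterol-dependent retention factor, had its highest value on day 3 in both arms, at 367 CPM in OSK and 317 CPM in GFP, and was not called.

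In the mevalonate arm, Mvd, the diphosphomevalonate decarboxylase, stood at 80.7, 30.3, 30.2 and 25.1 CPM in OSK and at 136, 83.8, 60.4 and 60.1 CPM in GFP. It was lower in OSK on each day, with a log2 difference of -1.10 (SE 0.17, adjusted p = 0.00835). Acat2, the cytosolic thiolase of the first step, went from 415 to 147 CPM in OSK and from 591 to 202 CPM in GFP (log2 difference -0.68, SE 0.18, adjusted p = 0.0372). Fdps stood at 422, 135, 142 and 136 CPM in OSK and at 559, 300, 238 and 183 CPM in GFP (log2 difference -0.67, SE 0.19, adjusted p = 0.0455). Mvk, mevalonate kinase, had 69.6, 30.0, 29.8 and 29.8 CPM in OSK against 101, 59.7, 44.9 and 37.8 CPM in GFP (log2 difference -0.60, SE 0.17, adjusted p = 0.0422). Hmgcs1, Pmvk and Idi1 of the same arm were not called.

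In the sterol arm, Nsdhl, which removes methyl groups from the sterol ring, stood at 184, 73.7, 66.8 and 45.0 CPM in OSK and at 226, 179, 147 and 121 CPM in GFP. The log2 difference was -1.02 (SE 0.23, adjusted p = 0.0237). Sqle, squalene epoxidase, lay at 164 to 237 CPM in OSK, all below the 271 to 372 CPM of GFP (log2 difference -0.71, SE 0.19, adjusted p = 0.0373). Ebp went the other way, with 87.8, 73.6, 104 and 112 CPM in OSK above 71.2, 45.4, 52.2 and 53.1 CPM in GFP (log2 difference 0.79, SE 0.18, adjusted p = 0.0269). Hsd17b7, the sterol 3-ketoreductase, had a log2 difference of -1.19 and did not pass (SE 0.42, adjusted p = 0.0796). Its OSK values of 154, 99.3, 72.6 and 50.1 CPM began above and ended below the 122, 261, 220 and 209 CPM of GFP. Cyp51, lanosterol demethylase, stood at 466, 278, 273 and 235 CPM in OSK and at 446, 673, 465 and 410 CPM in GFP and was not called. Fdft1, squalene synthase, stood at 306, 236, 239 and 234 CPM in OSK and at 285, 267, 226 and 178 CPM in GFP. Its exons overlap those of Ctsb on the other strand over 18.3% of their length, and Ctsb is at a median of 915 CPM, so that unstranded reads there could belong to either gene.

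Stard4, which carries cholesterol between membranes, stood at 154, 147, 137 and 133 CPM in OSK and at 99.9, 183, 175 and 183 CPM in GFP, with no call. In fatty acid synthesis 0 of 4 genes were called. Acly, which makes cytosolic acetyl-CoA, stood at 768, 400, 357 and 327 CPM in OSK and at 1049, 686, 501 and 440 CPM in GFP (log2 difference -0.52, SE 0.17, adjusted p = 0.0607). Fasn, fatty acid synthase, stood at 1201, 564, 410 and 227 CPM in OSK and at 1480, 657, 465 and 466 CPM in GFP (adjusted p = 0.187).

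Of the desaturases, Fads2, the delta-6 desaturase, had the largest fitted difference of the 29 genes. It stood at 134, 85.6, 66.0 and 36.8 CPM in OSK, all below the 274, 219, 144 and 160 CPM of GFP (log2 difference -1.39, SE 0.23, adjusted p = 0.00984). The stearoyl-CoA desaturases did not pass. Scd1 stood at 1462, 1618, 1432 and 1269 CPM in OSK and at 972, 1360, 950 and 900 CPM in GFP (log2 difference 0.50, SE 0.18, adjusted p = 0.0863). Scd2 stood at 4554, 5775, 4243 and 3762 CPM in OSK and at 5326, 5185, 3291 and 2702 CPM in GFP. Scd1 and Scd2 are close paralogs, and the estimated counts share out reads that fit both.

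**Figure D2:**
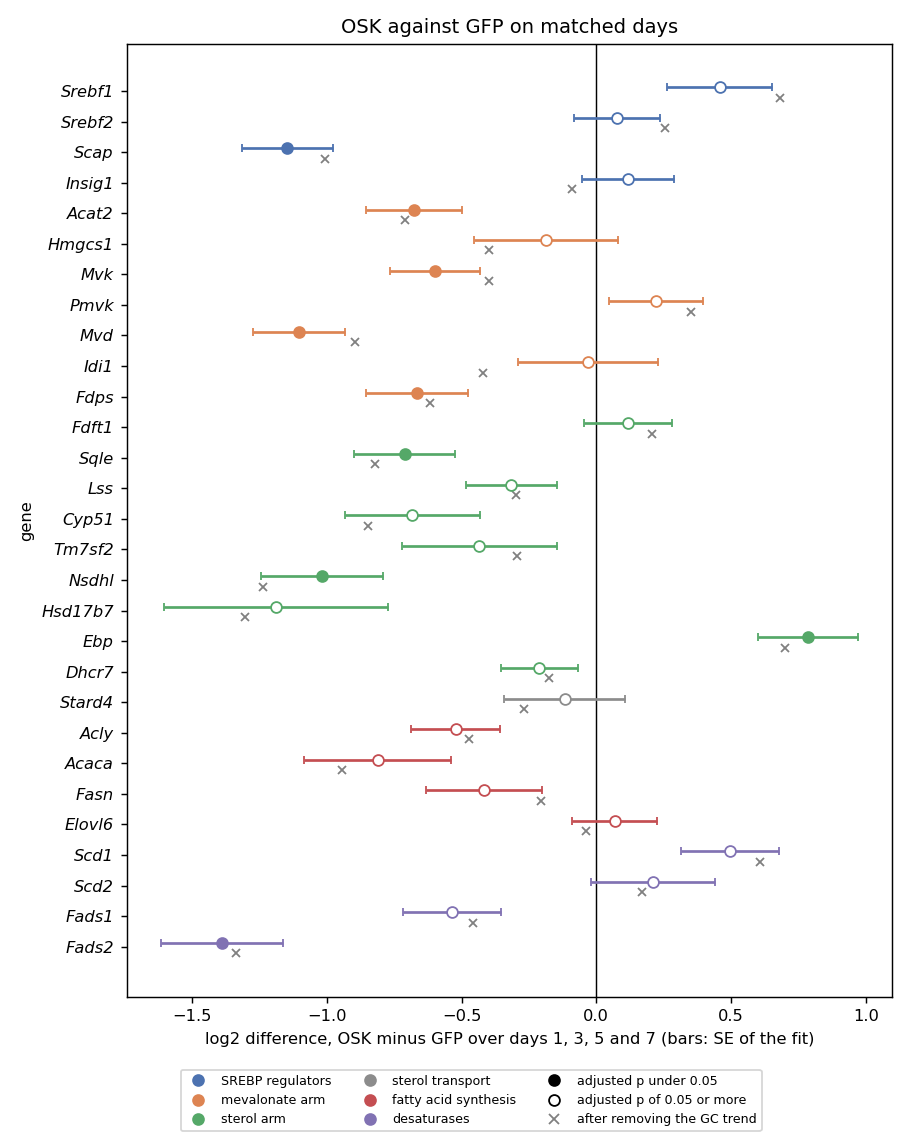
Log2 difference of OSK from GFP over days 1, 3, 5 and 7 for each gene (points, with the SE of the fit as bars; filled where the adjusted p is under 0.05), and the same after removing the GC trend (crosses). Fads2, Scap, Mvd and Nsdhl lie below -1, and Ebp is the filled point above 0.

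The count rested on the days used. Without day 3 or without day 5, 0 of the 29 genes were called, and over all genes the higher calls went from 2126 to 731 or 598. Without day 1, 16 were called, and without day 7, 5. The lower calls over all genes, 1769 in the full fit, are not given for these or the following settings. A change in the 29 genes therefore cannot be told apart here from a change over all genes. With the GC trend removed 8 genes were lower and 2 higher. Mvk went to -0.40 (adjusted p = 0.112) and was not called. Fdps was also not called, at nearly the same difference (-0.62, adjusted p = 0.0609). Cyp51 (-0.85, adjusted p = 0.0461) and Acaca (-0.94, adjusted p = 0.0467) were called lower, and Srebf1 (0.68, adjusted p = 0.0316) higher beside Ebp. By limma on log2(TPM + 1) 4 were lower and 2 higher.

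Markers of cell types and states moved with this comparison, and their part in the result was not tested. Of 9 fibroblast markers 7 were lower in OSK (median log2 difference -3.58), with a summed level of 2302 to 14760 CPM in OSK and 14990 to 29130 CPM in GFP. Of 8 pluripotent markers 1 passed the filter on low counts, Cdh1. It passed through its OSK levels, so its higher call carries no weight. Cdh1 stood at 6.61 to 321 CPM in OSK and 0 to 0.255 CPM in GFP. The sum of the 8 markers lay at 7.96 to 866 CPM in OSK and 0.83 to 1.99 CPM in GFP. The macrophage markers Cd14 and Lyz2, 2 of 3 tested, were called lower. Both passed the filter through their GFP levels, so these calls carry no weight. Cd14 stood at 0.524 to 1.68 CPM in OSK and 6.16 to 11.0 CPM in GFP. Lyz2 stood at 0.902 to 11.7 CPM in OSK and 12.6 to 48.4 CPM in GFP. The summed level of 6 proliferation markers, of which 3 were called higher in OSK, went from 906 to 1610 CPM over days 1 to 7 of OSK and from 860 to 95.5 CPM in GFP. Of 8 adipocyte markers, Cfd had 0 counts in all 20 libraries, Adipoq in 15 and Plin1 in 18, and the sum was 1.1 to 3.70 CPM in OSK and 9.60 to 18.7 CPM in GFP on these days. The 3 adipocyte markers that could be tested passed the filter through their GFP levels, so their lower calls in OSK carry no weight. Fabp4 stood at 0.165 to 0.524 CPM in OSK and 4.84 to 11.3 CPM in GFP. Cebpa stood at 0.165 to 1.91 CPM in OSK and 1.42 to 3.95 CPM in GFP. Pparg stood at 0.241 to 1.35 CPM in OSK and 2.42 to 4.58 CPM in GFP.

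Over the OSK course from day 0 to day 7, 12 of the 29 genes fell with day and 0 rose, from a line fitted per arm. Of 13848 genes, 24.0% fell and 21.5% rose. The 12 were Srebf2 and Scap among the regulators, Mvk, Pmvk, Mvd and Fdps of the mevalonate arm, Lss, Tm7sf2 and Nsdhl of the sterol arm, Acaca and Fasn of fatty acid synthesis, and Fads2. Their slopes lay between -0.17 and -0.35 log2 per day. The steepest on the scale of counts were Fasn and Mvd. Fasn, in counts, had 1103, 1201, 564, 410 and 227 CPM on days 0, 1, 3, 5 and 7 (slope -0.35, SE 0.06, adjusted p = 0.00208). In TPM Fasn had 149, 311, 177, 144 and 158, with no decrease from day 0 to day 7, and its slope by limma on log2(TPM + 1) was -0.07 and was not called. Mvd had 139, 80.7, 30.3, 30.2 and 25.1 CPM (slope -0.35, SE 0.06, adjusted p = 0.00154). Fdps had 588, 422, 135, 142 and 136 CPM (slope -0.31, SE 0.06, adjusted p = 0.00232). In Mvd and Fdps the decrease lay between days 0 and 3, with level values after it.

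The other 9 genes had the same direction. Pmvk, phosphomevalonate kinase, had 102 CPM on day 0 and 20.2 CPM on day 7 (slope -0.32, SE 0.07, adjusted p = 0.00395). Mvk went from 153 to 29.8 CPM (slope -0.32, SE 0.06, adjusted p = 0.00303), and Srebf2 from 571 to 194 CPM (slope -0.20, SE 0.04, adjusted p = 0.00348). Fads2 went from 168 to 36.8 CPM (slope -0.30, SE 0.04, adjusted p = 0.000686). Acaca, acetyl-CoA carboxylase, had 117, 298, 197, 125 and 65.8 CPM, with its highest value on day 1 (slope -0.22, SE 0.08, adjusted p = 0.0478). Lss, lanosterol synthase, likewise had 164, 296, 174, 138 and 81.6 CPM (slope -0.21, SE 0.07, adjusted p = 0.0282). Nsdhl had 84.1, 184, 73.7, 66.8 and 45.0 CPM (slope -0.23, SE 0.07, adjusted p = 0.0222). Tm7sf2 had 37.7, 50.9, 22.7, 20.7 and 18.5 CPM (slope -0.20, SE 0.06, adjusted p = 0.0142), and its exons share 12.1% of their length with Vps51 on the same strand. Scap had 224, 118, 106, 111 and 79.8 CPM (slope -0.17, SE 0.04, adjusted p = 0.0105).

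With the GC trend removed 8 genes fell and 0 rose: Srebf2 (slope -0.05), Scap (-0.04), Lss (-0.16), Tm7sf2 (-0.09) and Fasn (-0.22) no longer passed, with adjusted p from 0.0829 to 0.415, and Cyp51 did (slope -0.15, adjusted p = 0.0223). By limma on log2(TPM + 1) 5 fell and 4 rose (Ebp, Elovl6, Idi1 and Hmgcs1). Without OSK day 0, 15 genes were called. The shares of all genes called under these settings are not given here, so these counts are description only.

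Within the single set of libraries that holds days 1 to 7, 14 of the 29 genes were at least 2-fold lower on day 7 than on day 1 of OSK, and 0 were 2-fold higher. The shares over the 11521 genes with at least 5 CPM in either library were 16.1% lower and 22.1% higher. Fasn was 5.29-fold lower (ratio 0.189, 95% counting interval 0.182 to 0.196), Acaca 4.54-fold, Nsdhl 4.09-fold, Fads2 3.65-fold and Lss 3.63-fold. In TPM 12 of the 14 were at least 2-fold lower and 0 genes 2-fold higher. Fasn was 1.97-fold lower in TPM (311 to 158) and Fads1 1.86-fold, whereas Acaca was 4.88-fold, Lss 4.02-fold and Nsdhl 3.79-fold lower. Why Fasn differed between both scales was not tested. Intervals here cover counting error only.

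In GFP, 8 genes were at least 2-fold lower on day 7 than on day 1 (Acat2, Mvk, Pmvk, Mvd, Fdps, Lss, Acly and Fasn), against 16.6% of 11036 genes. Idi1 and Elovl6 were higher, at 2.27-fold and 2.10-fold, against 23.9%. Fitted slopes in GFP passed for 0 of the 29 genes, against 2.73% of genes falling and 2.07% rising. At an unadjusted p under 0.05 there were 11, against 25.6% of all genes, and DESeq2 called 7, all falling. With the GC trend removed 1 gene fell, Nsdhl (slope -0.27, adjusted p = 0.023). The shares of all genes called by DESeq2 or with the GC trend removed are not given here, so these counts are description only. The slope of OSK minus that of GFP passed for 0 of 29 and 0 with DESeq2, against 2.85% higher and 3.38% lower. There were 3 at an unadjusted p under 0.05, against 21.6% of all genes.

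In OvSvK 23 of the 29 genes had their highest value on day 1 of the 5 days, against 18.4% of the 11928 genes with at least 5 CPM in the arm. They were all of the sterol arm, all 4 of fatty acid synthesis, Stard4, Insig1, 5 of the mevalonate arm, Scd2, Fads1 and Fads2. In OSK 14 of 29 were highest on day 1, against 10.7% of 12115 genes. In GFP, whose first library is day 1, 18 were, against 43.9% of 11134.

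Between days 0 and 1 of OvSvK, 4 genes were at least 2-fold higher and 0 were 2-fold lower, against 14.7% and 10.9% of 11169 genes. By sign 26 of the 29 were above day 0, as every gene highest on day 1 must be. The median log2 ratio was 0.39, against 0.01 over all genes. Elovl6 went from 51.6 to 228 CPM (4.42-fold, counting interval 3.98 to 4.90) and Idi1 from 77.0 to 304 CPM (3.95-fold, 3.63 to 4.30). Dhcr7, the last reductase of cholesterol synthesis, went from 36.2 to 79.3 CPM (2.19-fold, 1.92 to 2.50). Fasn went from 473 to 951 CPM (2.01-fold, 1.94 to 2.09). These 2 libraries also differ in the low-GC deviation, at -0.21 and 0.45, and its part was not tested.

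From day 1 to day 4 of OvSvK most of the genes were lower again. Of the 29, 3 were at least 2-fold lower (Idi1, Fdps and Hsd17b7) and 0 were 2-fold higher, against 8.36% and 8.86% of 11452 genes. By sign 26 of the 29 lay below their day 1 value, as the 23 genes highest on day 1 must. The median log2 ratio was -0.44, against -0.1 over all genes. In TPM 0 of the 29 were 2-fold lower. Idi1 lay at 304, 218, 168 and 143 CPM on days 1 to 4 and Hsd17b7 at 113, 88.4, 70.8 and 48.3 CPM. Insig1 lay at 139, 152, 131, 98.4 and 97.1 CPM over days 0 to 4. Srebf1 was at 81.4, 121, 136, 174 and 172 CPM, and Scd1 at 562, 738, 709, 715 and 779 CPM. The line over days 0 to 4 passed for 0 of the 29 genes, against 4.49% of genes rising and 5.81% falling. At an unadjusted p under 0.05 there were 3, against 25.3% of all genes. DESeq2 called 3, and its share of all genes is not given here. The smallest p was that of Srebf1 (slope 0.28, SE 0.08, adjusted p = 0.0579), which passed with the GC trend removed (slope 0.31, adjusted p = 0.0452). OvSvK minus OSK slopes, compared after the values were seen, passed for 0 of 29 genes, against 0.0% of genes in both directions. At an unadjusted p under 0.05 there were 4, against 12.1% of all genes. DESeq2 called 1, Srebf1, and here too its share of all genes is not given.

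**Figure D3:**
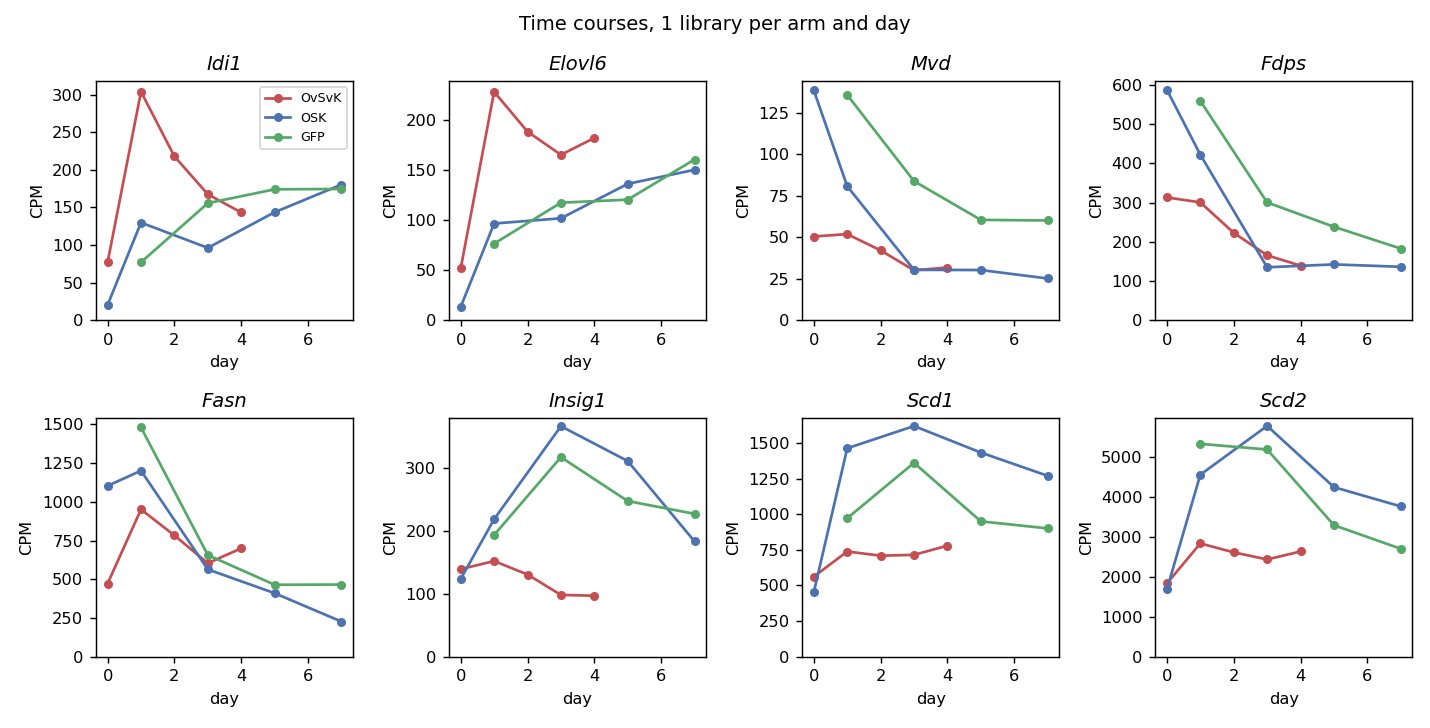
CPM of 8 genes by day in OvSvK, OSK and GFP (1 library per point, lines join the days of an arm). Idi1 and Elovl6 reach 304 and 228 CPM on day 1 of OvSvK, Mvd and Fdps end lower than they begin in all 3 arms, and Insig1, Scd1 and Scd2 lie higher in OSK than in OvSvK from day 1 on.

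OvSvK against OSK on days 0, 1 and 3 asks what the fused factors changed. No gene of all 12910 was called in this comparison (0.0% higher, 0.0% lower), and 0 of the 29. At an unadjusted p under 0.05 there were 6 of 29, against 23.2% of all genes. DESeq2 called Idi1 and Elovl6 higher, and its share of all genes is not given here. Idi1 lay at 77.0, 304 and 168 CPM in OvSvK and at 20.2, 130 and 96.2 CPM in OSK (log2 difference 1.34, SE 0.34, adjusted p = 0.0808). With the GC trend removed that difference was 0.13. Elovl6 lay at 51.6, 228 and 165 CPM in OvSvK and at 13.2, 96.4 and 102 CPM in OSK (log2 difference 1.32, SE 0.35, adjusted p = 0.0895), and 1.22 with the trend removed. Both were higher in OvSvK on each of the 3 days, as was Hmgcs1, and 11 genes were lower on each. The share of all genes with the same sign on all 3 days was not counted. On day 1 alone 2 of the 29 genes were at least 2-fold higher in OvSvK (Idi1 and Elovl6) and 1 was lower (Tm7sf2), against 15.7% and 7.76% of genes. On day 3 alone 0 were higher and 4 lower, against 11.7% and 9.97%. The 4 were Insig1 (98.4 against 367 CPM, ratio 0.268), Scd2 (2435 against 5775 CPM), Scd1 (715 against 1618 CPM) and Fads1 (223 against 463 CPM). Both days cross the library sets.

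In the arm without GSK3 inhibitors 8 of the 29 genes were called against OSK on days 3 and 7, 4 higher and 4 lower. Of 14191 genes 9.97% were higher and 13.3% lower. The comparison crosses the library sets, so the omission and the set cannot be told apart. The higher genes were Srebf1, Mvk, Pmvk and Mvd and the lower ones Idi1, Stard4, Elovl6 and Scd2. Elovl6 stood at 42.8 and 41.7 CPM without the inhibitors and at 102 and 150 CPM in OSK (log2 difference -1.52, SE 0.22, adjusted p = 0.00261). Idi1 stood at 54.7 and 59.2 CPM against 96.2 and 180 CPM (log2 difference -1.21, SE 0.24, adjusted p = 0.0074), and Stard4 at 77.2 and 71.9 CPM against 147 and 133 CPM (log2 difference -0.90, SE 0.21, adjusted p = 0.0152). Scd2 stood at 2817 and 2546 CPM against 5775 and 3762 CPM (log2 difference -0.81, SE 0.25, adjusted p = 0.0449). None of these 4 overlapped between the arms, but neither did genes that were not called, such as Sqle, Cyp51, Scd1 and Scap. The share of all genes without overlap was not counted. In the same comparison 6 of 9 fibroblast markers were higher, 6 of 8 pluripotent markers lower and 3 of 6 proliferation markers lower, and their part in the result was not tested. The pluripotent sum was 31.3 and 96.9 CPM without the inhibitors and 87.0 and 866 CPM in OSK.

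The 4 higher genes are rich in GC. Pmvk stood at 40.7 and 32.4 CPM against 19.8 and 20.2 CPM in OSK (log2 difference 0.86, SE 0.22, adjusted p = 0.0199), and Mvk at 55.8 and 51.9 CPM against 30.0 and 29.8 CPM (log2 difference 0.85, SE 0.24, adjusted p = 0.0286). Srebf1 stood at 238 and 313 CPM against 161 and 166 CPM (log2 difference 0.76, SE 0.22, adjusted p = 0.034), and Mvd at 51.8 and 35.5 CPM against 30.3 and 25.1 CPM (log2 difference 0.64, SE 0.20, adjusted p = 0.0421). Their GC content was 55.7% to 59.8%, against 40.6% to 50.4% in the 4 lower genes. With the GC trend removed 2 genes were called, Insig1 higher (log2 difference 0.78, adjusted p = 0.0498) and Elovl6 lower (-1.40, adjusted p = 0.0156). The differences of Srebf1 (0.15), Mvk (0.31), Pmvk (0.51), Mvd (0.09) and Idi1 (-0.30) were then smaller, with adjusted p from 0.107 to 0.751. Stard4 (-0.67, adjusted p = 0.0558) and Scd2 (-0.82, adjusted p = 0.0626) were not called, and Scd2 was as large as before. Without day 7 of this arm 0 were called. The shares of all genes called under these settings are not given here.

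Against the other omissions, a comparison within 1 library set added after the values were seen, the arm without GSK3 inhibitors differed in 2 of the 29 genes. Of all genes 4.31% were higher and 5.45% lower. Elovl6 was lower, at 42.8 and 41.7 CPM against 61.3 and 99.4 CPM without bFGF and 103 and 145 CPM without vitamin C (log2 difference -1.19, SE 0.20, adjusted p = 0.00823). Insig1 was higher, at 419 and 280 CPM against 235 and 176 CPM without bFGF and 282 and 180 CPM without vitamin C (log2 difference 0.69, SE 0.19, adjusted p = 0.0435). Both passed with the GC trend removed (adjusted p = 0.0208 and 0.0299). Elovl6 kept its call in 6 of 8 fits that left out 1 library and Insig1 in 2 of 8. Without day 7 of either this arm or the arm without bFGF, 0 of the 29 were called.

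**Figure D4:**
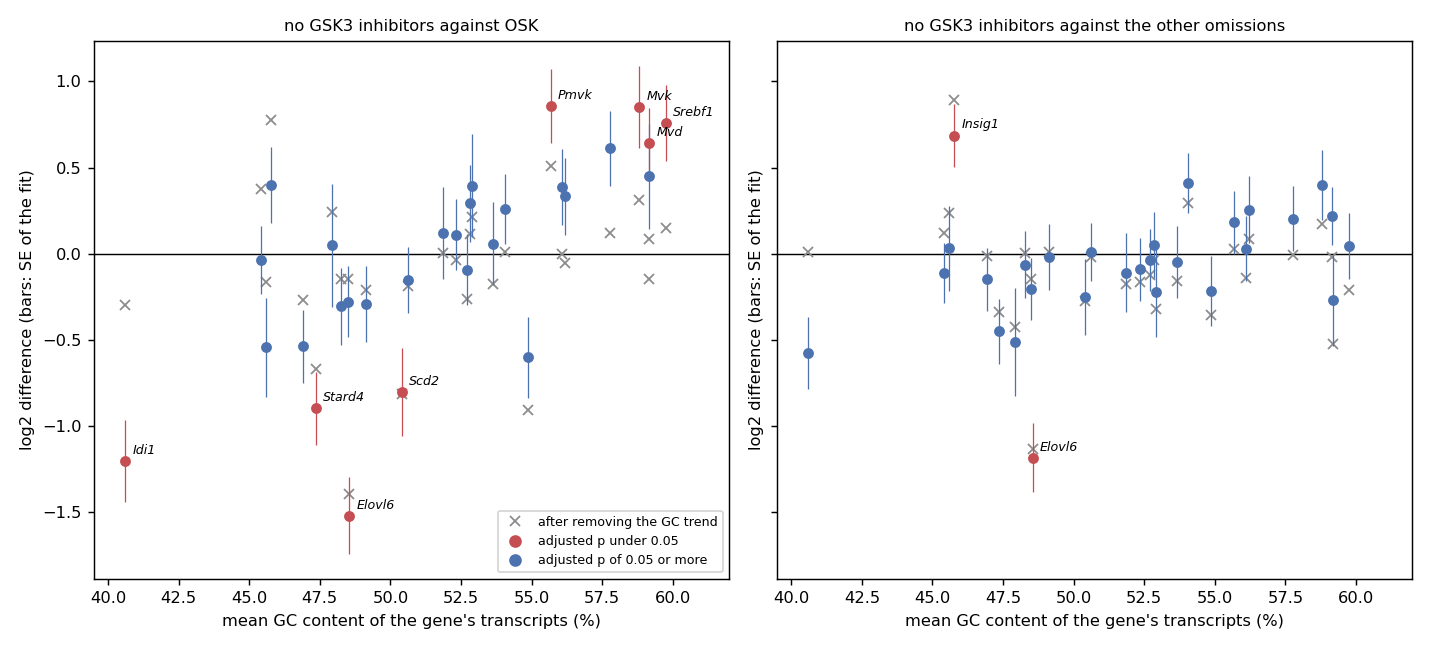
Log2 difference of the arm without GSK3 inhibitors (points with the SE of the fit as bars, red where the adjusted p is under 0.05; crosses, after removing the GC trend) against the mean GC content of each gene's transcripts, from OSK on the left and from the other omissions on the right. On the left the 4 red points above 0 lie at 55.7% GC or more and the 4 below at 50.4% or less, and on the right Elovl6 and Insig1 are red.

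Without bFGF 2 of the 29 genes were called against OSK, 1 in each direction, in a comparison that also crosses the library sets. Of all genes 4.71% were higher and 7.77% lower. Pmvk was higher, at 41.6 and 29.4 CPM against 19.8 and 20.2 CPM (log2 difference 0.80, SE 0.22, adjusted p = 0.0384). Idi1 was lower, at 50.8 and 84.9 CPM against 96.2 and 180 CPM (log2 difference -1.01, SE 0.24, adjusted p = 0.0231). Neither passed with the GC trend removed, at 0.51 for Pmvk and -0.28 for Idi1 (adjusted p = 0.142 and 0.376). In this comparison 7 of 9 fibroblast markers were higher and 5 of 8 pluripotent markers lower, and their part was not tested. Against the other omissions 0 of 29 passed (1.4% of all genes higher, 0.782% lower), with 0 by DESeq2. There were 2 at an unadjusted p under 0.05, against 15.4% of all genes.

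Without vitamin C 0 of the 29 genes were called against OSK, again across the library sets. Of all genes 0.0423% were higher and 0.254% lower. At an unadjusted p under 0.05 there were 3, against 12.6% of all genes, and DESeq2 called 0. Against the other omissions Idi1 and Elovl6 were higher, against 9.65% of genes higher and 3.39% lower. Elovl6 stood at 103 and 145 CPM without vitamin C (log2 difference 1.07, SE 0.18, adjusted p = 0.00413; with the GC trend removed 1.01). Idi1 stood at 106 and 118 CPM (log2 difference 0.86, SE 0.20, adjusted p = 0.0173), and at -0.04 with the GC trend removed.

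Other genes of lipid metabolism were tested in the same fits. Of 23 further synthesis genes, 2 were higher and 3 lower in OSK than in GFP, against 16.8% and 14% of all genes. Elovl7, an elongase of long chains, was at 10.2 to 18.1 CPM in OSK against 0.746 to 1.41 CPM in GFP. It passed the filter on low counts through its OSK levels, so its higher call carries no weight. Acsl1, an acyl-CoA synthetase, was also higher (1.18, SE 0.24, adjusted p = 0.0189), and Elovl1 was lower (-0.92, SE 0.19, adjusted p = 0.0185). Of 10 genes of the sterol sensor LXR and of sterol efflux, 1 was higher and 3 lower. The efflux pump Abcg1 was lower, at 3.59, 5.98, 12.8 and 12.8 CPM in OSK against 27.0, 25.1, 63.2 and 73.7 CPM in GFP (log2 difference -2.43, SE 0.20, adjusted p = 0.00172). Ch25h, which makes 25-hydroxycholesterol, was lower too (-4.48, SE 0.43, adjusted p = 0.00244), and Nr1h3, which encodes LXR alpha, was higher (2.19, SE 0.36, adjusted p = 0.0094). Of 13 genes of fatty acid oxidation, 1 was higher (Acadl, 0.75, SE 0.20, adjusted p = 0.0375) and 0 lower.

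With day in OSK, 6 of 26 further synthesis genes rose and 8 fell, 5 of the 13 oxidation genes fell and 1 rose, and 3 of the 10 sterol efflux genes fell and 1 rose. Of all genes 21.5% rose and 24.0% fell. Those with the smallest p in their lists were Fads3 (slope -0.54, SE 0.07), Acadvl and Hadha (-0.33 and -0.18, SE 0.07 and 0.03) and Abcg1 (0.32, SE 0.07). In the arm without GSK3 inhibitors 6 of the 26 were lower than in OSK and 0 higher, against 13.3% and 9.97% of all genes. Mbtps2, the site-2 protease that releases SREBPs in the Golgi, stood at 14.9 and 20.1 CPM against 37.8 and 44.1 CPM in OSK (log2 difference -1.23, SE 0.20, adjusted p = 0.00381). Against the other omissions Mbtps2 was lower as well (-0.85, SE 0.18, adjusted p = 0.0184). The comparison with OSK crosses the library sets. The low-GC deviation on days 3 and 7 was -0.36 and -0.19 without the inhibitors and 0.16 and 0.51 in OSK. It was -0.39 and 0.10 without bFGF and 0.33 and 0.44 without vitamin C. Its part was not tested, and values of Mbtps2 with the GC trend removed are not given here.

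Fibroblasts and stem cells were compared on the scores of the authors' table of the whole series. Its columns share 1 median and 1 maximum, so a score is read as a place within a library and not as an amount. Each cell type is 1 library, and no test was made. Both reference libraries are marked as re-analysis and were processed with another RSEM version and genome build than the courses. Between a course library and a reference cell, cell state and processing therefore cannot be told apart. Of the 29 genes, 5 were at least 2-fold higher in mESC than in MEF, against 26.1% of 12897 genes, and 1 was 2-fold lower, against 27.1%. The 5 were Elovl6 (score 4348 in mESC and 1141 in MEF), Tm7sf2 (400 and 138), Pmvk (638 and 236), Dhcr7 (1456 and 590) and Fdps (3148 and 1542). Hsd17b7 was lower in mESC, at 300 against 1436. Its score was 466 on day 7 of OSK, 521 on day 4 of OvSvK and 2130 on day 7 of GFP. Elovl6 was at 1938, 2442 and 1820 in the same order.

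Not all genes lay between both reference cells. Acaca scored 630 on day 7 of OSK, below both MEF (1754) and mESC (2060), and 1934 on day 4 of OvSvK. Fads2 scored 514 on day 7 of OSK, below 1040 and 1202. Ebp scored 1372 on day 7 of OSK, above 293 and 424. Fasn scored 3934 on day 7 of OSK and 11500 on day 4 of OvSvK, beside 6525 in MEF and 10946 in mESC. Scd2 scored 58542, the highest value a column holds, at both end points, beside 18690 in MEF and 14682 in mESC. These values recur: 18690 was also the Scd2 score on day 7 of GFP, and 14682 the Scd1 score on day 7 of OSK. The gap to 58542 is thus one of place and not of amount. By distance on the log scale 18 of the 29 genes were nearer to mESC than to MEF on day 4 of OvSvK and 11 on day 7 of OSK. The same holds for 51.6% and 47.2% of all genes. On day 7 of GFP 11 were nearer to mESC, and 23.9% of all genes.

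**Figure D5:**
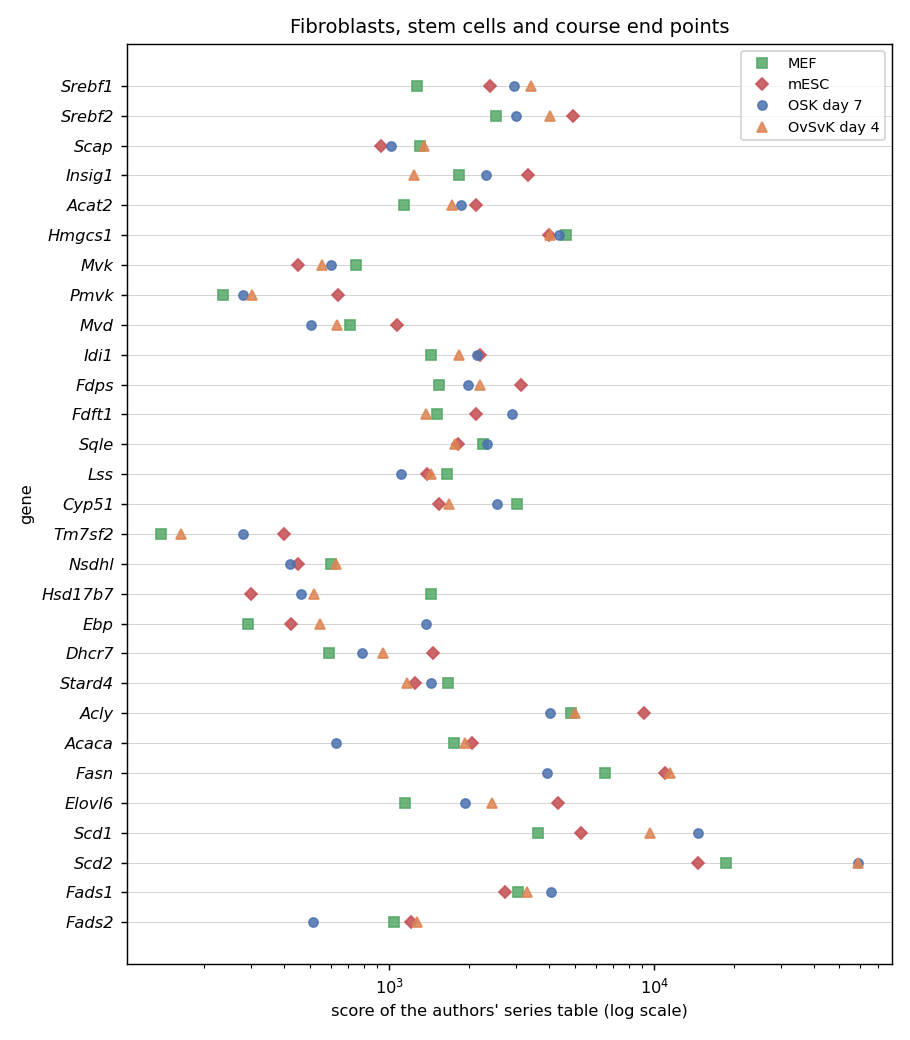
Scores of the authors' series table (log scale) for each gene in MEF, mESC, day 7 of OSK and day 4 of OvSvK, 1 library each. Hsd17b7 is high in MEF and low in the other 3, Elovl6 is highest in mESC, and Acaca and Fads2 on day 7 of OSK lie left of both reference cells.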

How the data were processed

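RNA of 22 samples was sequenced from TruSeq libraries, per the labels' protocols. The submitters' processing notes name RSEM 1.2.4 with mm10 for the 20 libraries of the time courses, and RSEM 1.1.21 with mm9 for both reference cells. The authors deposited expected counts, in which RSEM shares ambiguous reads among genes, and TPM, per the file headers. No label or header names the aligner or the strandedness. The authors' deposited series table (12897 genes) holds whole numbers with 1 median (374) and 1 maximum (58542) in every column, and was read as a score.

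Expected counts were rounded and fitted in R 4.3.3 with edgeR 4.0.16 (TMM, filterByExpr by arm, robust quasi-likelihood, Benjamini-Hochberg over all genes), after the models were tested on simulated data. Day was a block in the comparisons of arms (8 libraries for OSK against GFP and for omissions, 6 for OvSvK against OSK), with 2 or 3 residual degrees of freedom. For the courses, 14 libraries entered 1 fit with a separate line for each arm (8 residual degrees of freedom). Every SE comes from these fits. Single-day ratios used a prior count of 2 in the 2-fold count and at least 5 CPM in either library. Alternatives were DESeq2 1.42.0 (size factors, test), no filter, limma 3.58.1 on log2(TPM + 1), removal of a loess trend on GC content (span 0.5), and leaving out libraries. Tables and plots used python 3.11.15, pandas 2.3.3 and matplotlib 3.10.9. The members, lists and tests were chosen with earlier results of these data known. Values by library are given for members called in a comparison and for the 2 members per role with the highest mean TPM, and of other lists up to 3 genes with the smallest p. Other genes with values were chosen after these were seen. Some sterol genes are not reported here.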

Additional observations from a re-analysis of the deposited data

How the results depend on the processing

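The counts of the 29 genes called moved by over 1.5 times under these settings. Shares of all genes called under them are not given here. For OSK against GFP (9) DESeq2 called 15, and fits that left out 1 day called 0 to 16. For OvSvK against OSK (0) DESeq2 and no filter called 2 each, and leaving out a day gave 0 to 3. For the OvSvK slope (0) DESeq2 size factors, limma and GC removal called 1 each and DESeq2 3, leaving out both OSK day 0 and GFP day 1 gave 4, and leaving out 1 library 0 to 3. For the GFP slope (0) size factors and GC removal called 1 each and DESeq2 7, and leaving out 1 library 0 to 8. The OSK minus GFP slope gave 0 to 2 when 1 library was left out, and for OvSvK minus OSK DESeq2 called 1. Against OSK, no bFGF (2) gave 4 with DESeq2, 0 with GC removal and 0 to 11 without 1 library, no vitamin C (0) gave 0 to 4, and no GSK3 inhibitors (8) gave 2 with GC removal and 0 to 11. Against the other omissions, no bFGF (0) gave 0 to 1, no vitamin C (2) gave 1 with GC removal and 1 to 4, and no GSK3 inhibitors (2) gave 1 with limma and 0 to 5. The log2 difference of Idi1 for no vitamin C against the other omissions reversed to -0.042 with GC removal. The cause was not tested. The count for the OSK slope (12, all falling) was 8 to 16 over all settings in both directions together, but by limma on log2(TPM + 1) 5 fell and 4 rose. With the 100 bases before the start in place of 250, the CCAAT box was in 46.4% of the 28 promoters (18.9% of all) and the GC box in 39.3% (24.7%). Depth limits no gene here, with at least 101 counts in each library.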

Other observations

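The cholesterol efflux pump Abca1, which LXR activates and which was singled out after its values were seen, followed a course of its own in each arm. Its values were 276, 1045, 1231, 730 and 387 CPM on days 0 to 4 of OvSvK and 52.9, 571, 1449, 1049 and 436 CPM on days 0, 1, 3, 5 and 7 of OSK. The GFP values on days 1, 3, 5 and 7 were 8.41, 154, 253 and 427 CPM. The factor arms had their highest values on days 2 and 3, and all 3 courses ended between 387 and 436 CPM. Abcg1, the other pump, was at 21.6 CPM or less in both factor arms and at 25.1 to 73.7 CPM in GFP.

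The ratio of Scd2 to Scd1 in TPM, also looked at afterwards, was 4.86 on day 1 of GFP and 2.66 on day 7, and lay between 2.24 and 3.40 in the libraries of the other arms. Scd3, a further desaturase, was at 0 to 0.616 CPM in GFP and reached 2.39 CPM on day 4 of OvSvK and 1.32 CPM on day 7 of OSK. Without vitamin C it was at 1.70 CPM on day 7. All these values are near the floor, and the estimated counts share out ambiguous reads, so they are description only.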
